A study of Mus musculus with 8 samples.

Results

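The genes described here are 2 metallothioneins, Mt1 and Mt2, and 6 zinc transporters, Slc39a14, Slc39a8, Slc39a4, Slc39a10, Slc30a1 and Slc30a7, in mouse lungs with induced interleukin-1b (IL-1b). They were found by gene symbol, with 13 of the 43681 probe sets on the array and 8 of the 27201 named genes. The dox group is 5 arrays of whole lung from BALB/c mice that carry an IL-1b transgene and received doxycycline, which turns the transgene on. The water group is 3 arrays of lungs from BALB/c mice with the same transgene that received water. Treatment lasted 7 days. The age was about 12 weeks by the labels and 5 weeks by a column header of the text table. The title calls the transgene lung-specific; the promoter that drives it and the species of the IL-1b sequence are not given in the sources used here. Both groups carry the transgene and only one drank doxycycline, so the action of the drug itself and that of IL-1b cannot be told apart.

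Metallothioneins are short, cysteine-rich proteins that bind zinc, copper and cadmium in the cytosol. Their genes are switched on by zinc through the transcription factor MTF1, and also by glucocorticoids, by IL-6 acting through STAT3, and by oxidative stress. Zinc transporters fall into 2 families with opposite directions of transport. Slc39a proteins (ZIP) bring zinc into the cytosol from outside the cell or from vesicles, and Slc30a proteins (ZnT) move it out of the cell or into organelles. In acute inflammation the liver takes up zinc through Slc39a14 and stores it on metallothionein, and plasma zinc falls. Doxycycline, like other tetracyclines, binds divalent metal ions.

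Mt2, Slc39a14 and Slc39a4 rose in dox lungs, and none of the 8 genes fell. Mt2 was 2.72-fold higher, Slc39a14 1.74-fold and Slc39a4 1.58-fold. Mt1 was 1.54-fold higher but did not pass, and the exporter Slc30a1 was 0.939-fold the water level and did not pass either. "Rose" and "fell" are used of genes with an adjusted p under 0.05 in limma, a linear model fitted gene by gene with Benjamini-Hochberg adjustment over all 27201 genes. By that rule 3 of the 8 members rose and 0 fell, while 3.48% of all genes rose and 1.52% fell. At an unadjusted p under 0.05, 6 members were higher and 0 lower, compared with 8.8% and 9.92% of all genes. Every dox array lay above every water array for 6 of the 8 members and below for 0, compared with 7.25% and 6.96% of all genes. The median log2 difference (dox minus water) was 0.40 over the members and -0.03 over all genes.

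**Figure D1:**
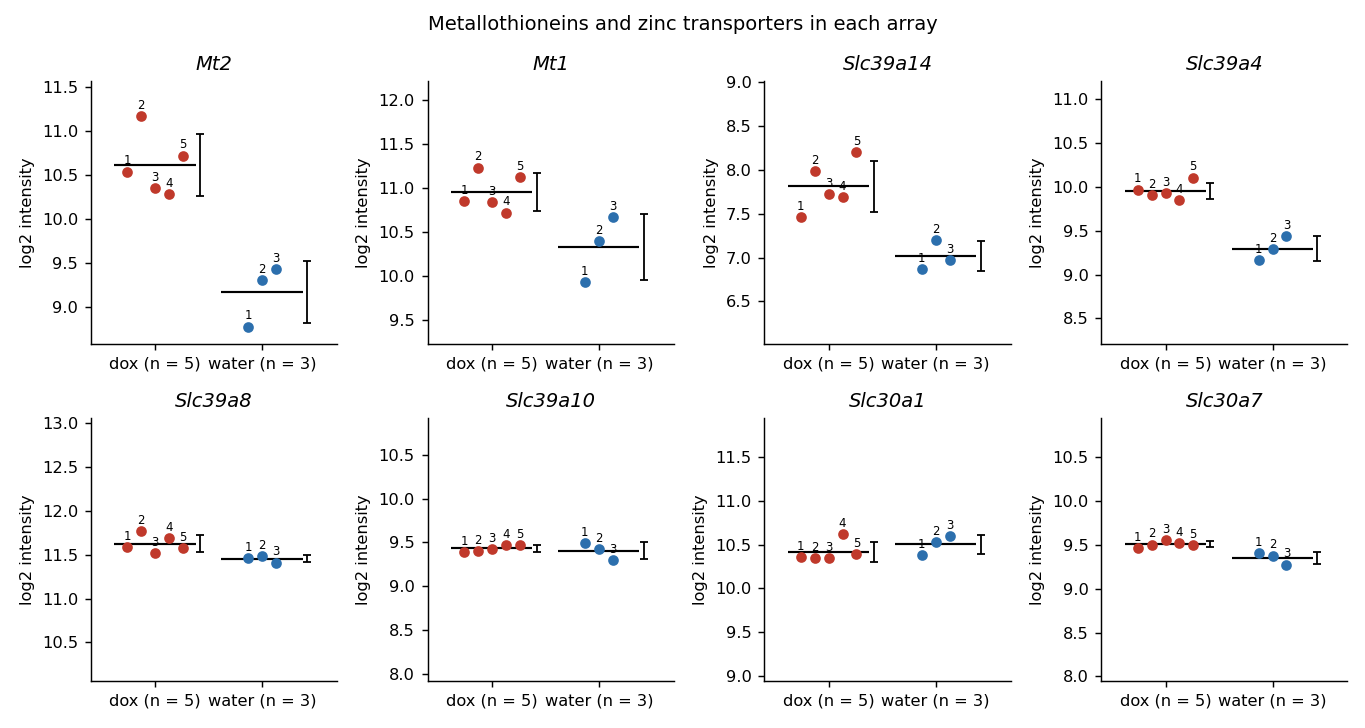
Log2 intensity (y axis, the same span of 3 log2 units in each panel) of the 8 genes in each array, with dox on the left (n = 5) and water on the right (n = 3). Points are arrays with their replicate number, the line is the group mean and the bar is 1 SD. Mt2, Mt1, Slc39a14 and Slc39a4 are higher in all dox arrays than in any water array, and the dox and water points of Slc39a10 and Slc30a1 overlap.

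Mt2, which encodes the second of the widely expressed metallothioneins, read 1488, 2303, 1311, 1248 and 1688 intensity units in dox arrays 1 to 5, against 437, 633 and 691 in water arrays 1 to 3. The lowest dox array was well above the highest water array, and dox 2 stood highest. Its geometric mean was 1568 units in dox and 576 units in water, a log2 difference of 1.44 ± 0.20 (limma standard error, SE), with an adjusted p of 0.00211. The 95% interval of the fold ran from 1.995 to 3.71. By size of rise Mt2 was number 82 of 27201 genes. The spread within groups was similar, with an SD of 0.35 on the log2 scale in dox and 0.35 in water.

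Mt1, its neighbour in the genome, encodes the other widely expressed metallothionein. It read 1849, 2409, 1834, 1688 and 2234 units in dox arrays 1 to 5, against 977, 1347 and 1633 in water arrays 1 to 3. The groups did not overlap, but the gap between dox 4 and water 3 was small. The log2 difference was 0.62 ± 0.16 (SE) and the adjusted p was 0.0572, so Mt1 did not pass; the 95% interval of its fold was 1.197 to 1.98. The call turned on water 3: without that array the log2 difference was 0.79 and the adjusted p 0.0294. Without water 1 the difference was 0.42 (adjusted p = 0.176).

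Both metallothioneins put the arrays in the same order. From high to low this was dox 2, 5, 1, 3 and 4, and water 3, 2 and 1. The change was nonetheless unequal within arrays. The log2 ratio of Mt2 over Mt1 signal was -0.31, -0.07, -0.48, -0.44 and -0.40 in dox arrays 1 to 5, against -1.16, -1.09 and -1.24 in water arrays 1 to 3. Its mean was -0.34 ± 0.17 in dox and -1.16 ± 0.08 in water (SD, n = 5 and 3), a shift of 0.82 toward Mt2 that was not tested. The 2 genes are close relatives, and the name of the Mt1 probe set ends in the suffix that Affymetrix-style names use for probes matching more than 1 transcript. Shared signal between them is therefore possible, and its size is not known. The probe sets that stand for Slc39a10 and Slc30a7 have the same suffix.

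**Figure D2:**
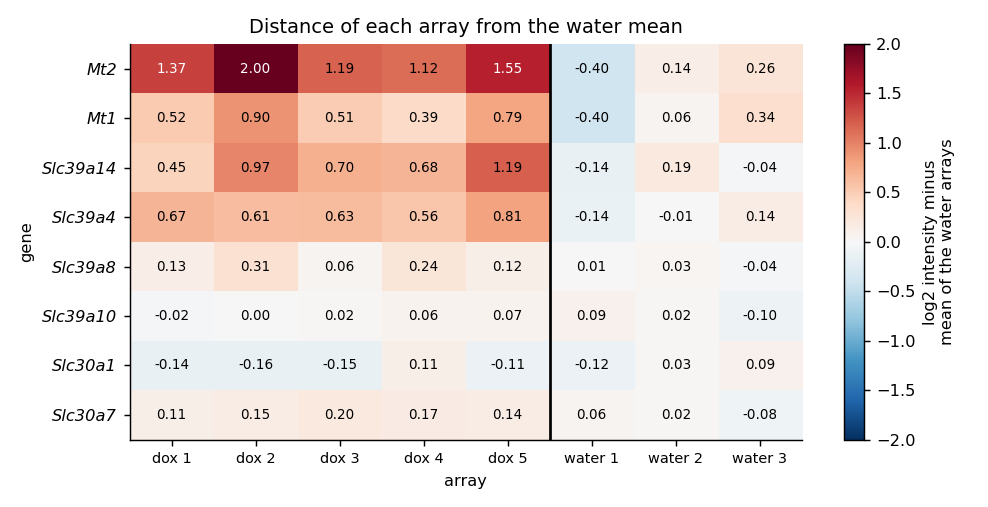
Log2 intensity of each gene (rows) in each array (columns, dox left of the line and water right of it) minus the mean of the 3 water arrays. Mt2 ranges from 1.12 to 2.00 over the dox arrays and Mt1 from 0.39 to 0.90, with dox 2 highest for both; Slc39a14 and Slc39a4 are highest in dox 5.

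In the RefSeq gene order of mouse chromosome 8 the protein-coding genes run Bbs2, Mt4, Mt3, Mt2, Mt1 and Nup93. The change was seen at Mt2, with Mt1 short of the threshold. The other metallothioneins of the cluster did not pass: the log2 difference was 0.05 ± 0.07 (SE) for Mt3, a brain metallothionein, and 0.05 ± 0.09 for Mt4, a metallothionein of stratified epithelium. Mt3 read 19.1 to 21.7 units in dox and 18.3 to 20.5 in water, and Mt4 11.1 to 12.7 units in dox and 9.78 to 12.9 in water. Such levels lie close to the lower quartile of all probe sets (14.2 units), and no detection call shows that they exceed background. The flanking genes did not pass either, with -0.13 ± 0.06 for Bbs2 and -0.00 ± 0.07 for Nup93.

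The upstream sequences of the metallothionein genes are shown because MTF1 acts through short metal response elements close to the start of transcription, and Slc30a1 is shown beside them because it is a known MTF1 target. They are the 250 bases before the annotated start, from RefSeq (build GRCm38.p6). Capitals mark matches to the core of the element, TGCACNC or TGCGCNC on either strand, written 5′ to 3′.
Mt2 (chr8:94172368-94172617, + strand): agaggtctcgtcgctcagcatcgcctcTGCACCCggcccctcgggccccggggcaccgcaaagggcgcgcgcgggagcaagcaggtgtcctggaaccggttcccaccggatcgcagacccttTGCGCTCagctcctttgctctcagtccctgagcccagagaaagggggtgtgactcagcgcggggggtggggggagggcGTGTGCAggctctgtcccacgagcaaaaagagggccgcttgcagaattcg
Mt1 (chr8:94178839-94179088, + strand): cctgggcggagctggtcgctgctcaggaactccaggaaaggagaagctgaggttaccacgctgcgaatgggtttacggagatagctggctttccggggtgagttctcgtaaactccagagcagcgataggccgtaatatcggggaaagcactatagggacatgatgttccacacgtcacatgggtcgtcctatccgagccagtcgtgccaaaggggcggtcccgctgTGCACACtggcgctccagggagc
Slc30a1 (chr1:191906531-191906780, + strand): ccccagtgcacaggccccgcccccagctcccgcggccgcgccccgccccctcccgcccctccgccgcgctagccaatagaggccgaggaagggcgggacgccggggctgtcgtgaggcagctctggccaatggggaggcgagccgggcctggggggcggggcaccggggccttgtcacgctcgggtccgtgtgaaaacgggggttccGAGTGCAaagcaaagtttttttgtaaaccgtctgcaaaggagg

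The Mt2 window held 3 matches, and the Mt1 and Slc30a1 windows 1 each. Of 32851 windows of this length upstream of mouse genes, 21.4% held at least 1 match and 1.26% held 3 or more. The 2 windows of Slc39a8 in the table held 0 and 1 matches, and the windows of Slc39a10 and Slc30a7 held none. The core of the antioxidant response element, TGACNNNGC, was found once each upstream of Mt2, Slc30a1 and one Slc39a8 start, and in 10.2% of all windows. The STAT palindrome TTCNNNGAA was found upstream of one Slc39a10 start (7.02% of all windows), and the letters ACANNNTGT, the core of a glucocorticoid response element, upstream of Mt1 (5.84% of all windows). These are matches of letters only. Each window lies before an annotated start, and whether transcription in these lungs begins there was not tested. An element after the annotated start, or near another start of the same gene, would be missed. The Mt1 match lay 16 bases from the end of its window, and the bases beyond that end were not searched. The match counts of Mt2 and Mt1 therefore cannot be set against the sizes of their changes. The table held 8 windows for 6 of the 8 members; Slc39a14 and Slc39a4 were not among them.

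Among the importers, Slc39a14 carries zinc, non-transferrin iron and manganese into cells and is induced by IL-6 in liver. It read 176, 253, 211, 206 and 295 units in dox arrays 1 to 5, against 117, 147 and 125 in water arrays 1 to 3. All dox arrays lay above all water arrays, dox 5 highest and dox 1 lowest. The log2 difference was 0.80 ± 0.15 (SE; adjusted p = 0.0126, 95% interval of the fold 1.38 to 2.19). A second, dimmer probe set read 51.1 to 66.5 units in dox and 42.8 to 52.6 in water, with overlap, and did not pass on its own (log2 0.26 ± 0.11, adjusted p = 0.260). The mean of both probe sets gave a log2 difference of 0.53, and the call on the brighter one was lost without water 1 (adjusted p = 0.0591) or water 3 (0.0512).

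Slc39a4 is the zinc importer best known for uptake of dietary zinc in the gut, and its loss in humans causes the zinc deficiency acrodermatitis enteropathica. In these lungs it read 1002, 961, 972, 924 and 1100 units in dox arrays 1 to 5, against 572, 625 and 694 in water arrays 1 to 3. The dox arrays lay close together and far above the water arrays. The log2 difference of 0.66 ± 0.08 (SE) had the smallest adjusted p of the 8 genes, 0.00108, and the 95% interval of the fold was 1.39 to 1.79. It passed without any single array, with log2 differences of 0.59 to 0.73.

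Slc39a8, a close relative of Slc39a14, carries zinc, manganese and cadmium and is an NF-kB target in human cells. It read 3070, 3482, 2926, 3307 and 3053 units in dox arrays 1 to 5, against 2826, 2871 and 2721 in water arrays 1 to 3. All dox arrays were higher, by little. The log2 difference was 0.17 ± 0.07 (SE) and did not pass (adjusted p = 0.227), with a 95% interval of the fold from 1.009 to 1.26. The log2 ratio of Slc39a14 over Slc39a8 signal averaged -3.82 ± 0.29 in dox and -4.44 ± 0.16 in water (SD, n = 5 and 3), a shift of 0.63 that was not tested.

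Slc39a10, an importer of the plasma membrane that zinc represses through MTF1 in mouse liver, gave overlapping groups. It read 669, 678, 688, 708 and 711 units in dox arrays 1 to 5, against 719, 686 and 630 in water arrays 1 to 3. All dox values lay inside the range of the water arrays. Its log2 difference was 0.03 ± 0.06 (SE; adjusted p = 0.865), with a 95% interval of the fold from 0.923 to 1.13, and it was -0.02 without water 3. A second probe set overlapped as well, at 165 to 191 units in dox and 149 to 190 in water (log2 0.11 ± 0.09, adjusted p = 0.590).

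Neither exporter passed. Slc30a1, which pumps zinc out across the plasma membrane and is induced by zinc through MTF1, read 1313, 1303, 1304, 1571 and 1341 units in dox arrays 1 to 5, against 1336, 1480 and 1547 in water arrays 1 to 3. Of the dox arrays, 3 lay below all water arrays and 1, dox 4, above them. The log2 difference was -0.09 ± 0.08 (SE; adjusted p = 0.621), and the 95% interval of the fold ran from 0.826 to 1.07, which lies below the intervals of Mt2, Mt1, Slc39a14 and Slc39a4.

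Slc30a7, which loads zinc into the Golgi apparatus, read 706, 726, 750, 735 and 723 units in dox arrays 1 to 5, against 679, 665 and 619 in water arrays 1 to 3. The dox arrays were all higher, within a narrow range. The log2 difference was 0.15 ± 0.06 (SE; adjusted p = 0.198, 95% interval of the fold 1.01 to 1.22). Of its further probe sets, one read 242 to 275 units in dox and 185 to 218 in water and fell just short on its own (log2 0.32 ± 0.08, adjusted p = 0.0539). Another gave 256 to 287 units in dox and 245 to 266 in water (log2 0.10 ± 0.07, adjusted p = 0.534), and the last stayed under 10 units in all arrays, near the floor. Tested one by one, 3 of the 13 probe sets passed upward, against 2.31% of all 43681 probe sets.

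**Figure D3:**
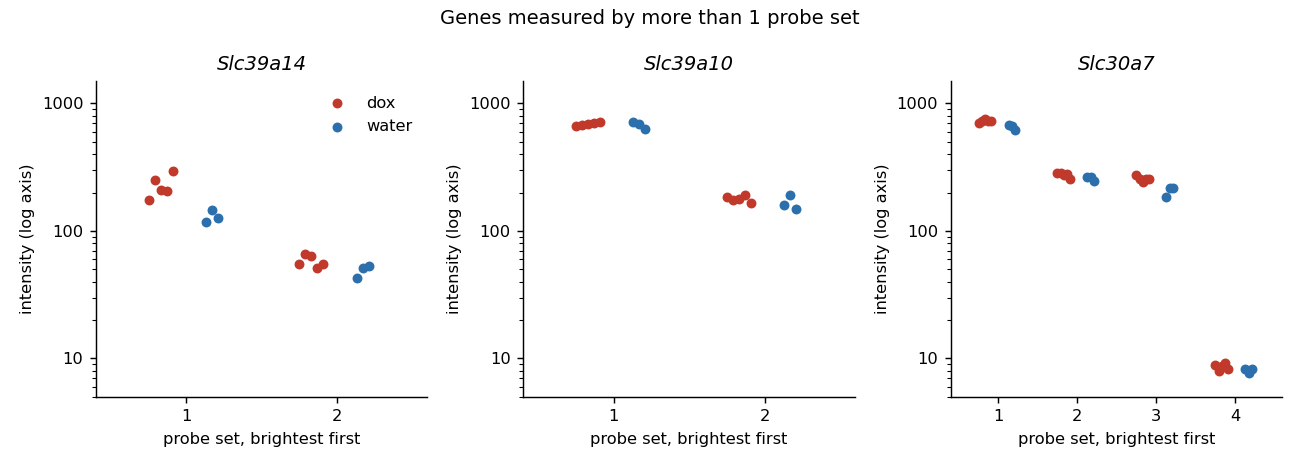
Intensity (log axis) of every probe set of the 3 genes with more than 1, dox (n = 5 arrays) left of water (n = 3 arrays), ordered by brightness. The brightest probe set of Slc39a14 separates the groups and its second one overlaps; the probe sets of Slc39a10 overlap; and for Slc30a7 the brightest and the one at 185 to 275 units separate the groups.

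No further gene of either transporter family passed. Of the 10 other Slc39a genes, 0 passed in limma, with 3 higher at an unadjusted p under 0.05 (Slc39a1, Slc39a2 and Slc39a11), against 8.8% of all genes, and their median log2 difference was 0.07. Of the 8 other Slc30a genes, 0 passed and 0 had an unadjusted p under 0.05, with a median of -0.09. The mean of Slc30a8 lay under the lower quartile, at 11.3 to 14.7 units in dox and 12.0 to 15.1 in water. Slc30a10 (16.1 to 20.25 units in dox, 17.7 to 20.5 in water) and Slc39a12 (16.2 to 20.7 and 12.9 to 18.9) lay close to it. Such levels limit what these probe sets can show. Closest to the threshold was Slc39a1, a plasma membrane importer found in most cells, at 267 to 349 units in dox and 233 to 261 in water (log2 0.33 ± 0.09, adjusted p = 0.0664). It passed without dox 1 (adjusted p = 0.0195). Slc30a4, a vesicle zinc transporter, had the smallest p of the 8 other Slc30a genes. It read 555 to 608 units in dox and 605 to 668 in water (log2 -0.12 ± 0.07, adjusted p = 0.348).

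**Figure D4:**
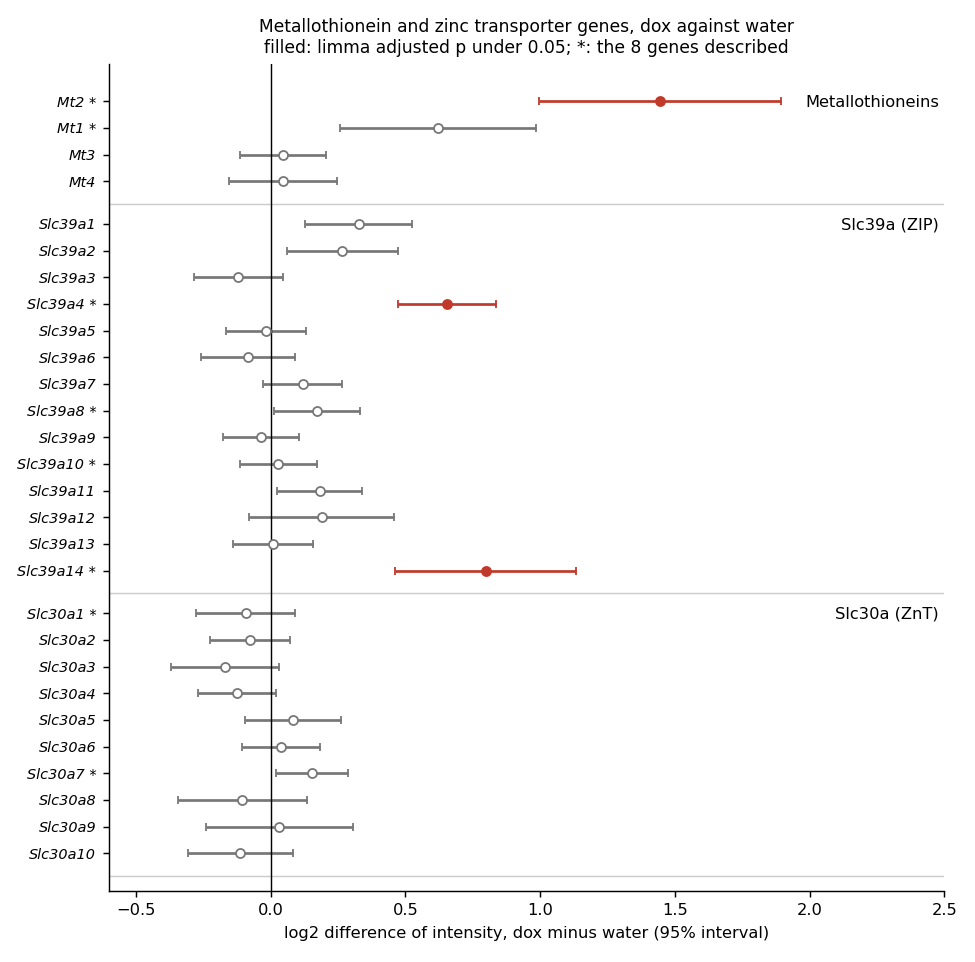
Log2 difference, dox minus water, with its 95% interval for the 28 metallothionein and zinc transporter genes measured; filled points have a limma adjusted p under 0.05 and asterisks mark the 8 genes described. Mt2, Slc39a14 and Slc39a4 are filled, and the Slc30a genes lie between -0.17 and 0.15.

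Of 12 known regulators of metallothionein genes, 1 rose and 0 fell, compared with 3.48% and 1.52% of all genes. At an unadjusted p under 0.05, 5 were higher (Il6, Stat3, Nfe2l2, Hif1a and Osm), compared with 8.8% of all genes. The median log2 difference of the 12 was 0.16. The same shares of all genes, with 9.92% lower at the unadjusted limit, belong beside the counts of the lists below. The one that rose was Il6, the cytokine that drives hepatic acute-phase genes. It read 53.2, 115, 33.5, 30.1 and 56.4 units in dox arrays 1 to 5, against 14.6, 15.7 and 14.6 in water arrays 1 to 3. The dox arrays stood in the order of Mt1 and Mt2, and the water arrays did not. How many other genes put the dox arrays in this order was not counted. The log2 difference was 1.77 ± 0.35 (SE; adjusted p = 0.0161), with water values near the lower quartile, and it was 1.14 with log2(intensity + 16). Il6 no longer passed without any 1 of the 3 water arrays (largest adjusted p 0.0594) or when the variance prior of limma followed the signal level and was made robust to outlying genes (the trend and robust prior, 0.0622). Mtf1, the zinc sensor itself, named here after its values were seen, read 264 to 289 units in dox and 248 to 273 in water and did not pass (log2 0.09 ± 0.06, adjusted p = 0.507).

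Of 9 glucocorticoid-responsive genes, 0 rose and 1 fell (0 were higher and 2 lower at an unadjusted p under 0.05, median -0.19). Tsc22d3 read 9.07 to 11.4 units in dox and 9.15 to 9.72 in water. Its mean lay under the lower quartile, which limits what its probe set can show. Zbtb16 spread widely in both groups, at 150 to 1422 units in dox and 156 to 1262 in water. The phosphatase gene Dusp1 fell to 2944 to 4023 units in dox, against 4492 to 5985 in water (log2 -0.60 ± 0.12 SE, adjusted p = 0.0165), and no longer passed without water 1 (adjusted p = 0.0632) or water 3 (0.0702), or with its probe sets averaged (0.169). Fkbp5, a chaperone gene that glucocorticoids induce, was also looked at after its values were seen. It read 294, 246, 209, 352 and 737 units in dox arrays 1 to 5, against 120, 196 and 397 in water arrays 1 to 3. The water arrays stood in the order of Mt1 and Mt2, as they did for Zbtb16, Slc39a4 and Slc30a1, and the dox arrays did not. How many other genes share this water order was not counted. Its log2 difference was 0.65 ± 0.43 (SE; adjusted p = 0.466).

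Other metal-handling genes gave mixed results. Of 4 secreted zinc-binding proteins 2 rose, namely the calprotectin subunits of neutrophils, which withhold zinc and manganese from microbes. S100a9 had a log2 difference of 1.38 ± 0.28 (adjusted p = 0.0181) and S100a8 of 1.19 ± 0.27 (adjusted p = 0.0312). S100a8 lost its call without dox 2, 3 or 5 or water 2 or 3 (adjusted p up to 0.104), and S100a9 without water 2 or 3 (up to 0.0617). With the trend and robust prior neither passed. Of 12 copper transporters and chaperones, 2 rose and 1 fell (median 0.05): the metalloreductase gene Steap4 by 3.19 ± 0.17, the ferroxidase ceruloplasmin, Cp, by 1.18 ± 0.12, and the copper exporter Atp7b with -0.42 ± 0.10. The Atp7b call was lost without dox 2 or 3 or any water array (adjusted p up to 0.119).

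Of 7 iron and manganese transporters, 1 rose (median -0.02), the phagosomal metal transporter Slc11a1 at 0.63 ± 0.15, a call lost without dox 2, 3 or 5 or water 2 or 3 (adjusted p up to 0.140). Of 8 NRF2 targets, 2 rose and 0 fell (3 were higher and 1 lower at an unadjusted p under 0.05; median 0.27): the cystine transporter Slc7a11 at 0.71 ± 0.11, a dim probe set with 25.5 to 35.6 units in dox and 18.8 to 19.6 in water, and the glutathione synthesis gene Gclc at 0.61 ± 0.10. Both passed without any single array (adjusted p up to 0.0285). The lower one was the quinone reductase gene Nqo1, at 94.6 to 120.0 units in dox and 130.3 to 140.7 in water (log2 -0.31 ± 0.08, adjusted p = 0.0539).

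Markers of phagocytes moved with the same contrast. Of 11 neutrophil markers 6 rose, which include S100a8 and S100a9 again and, with the largest change, the surface protein gene Cd177 (log2 3.96 ± 0.24 SE). Their summed intensity was 5476 to 10826 in dox and 2451 to 5008 in water. Most of it came from the 2 brightest, S100a8 (2581 to 5073 units in dox, 1129 to 2616 in water) and S100a9 (1491 to 3013 and 572 to 1330). Of 12 macrophage and monocyte markers 10 rose, most of all the macrophage elastase gene Mmp12 (log2 3.12 ± 0.15 SE), with sums of 9343 to 12974 in dox and 3878 to 4078 in water. Of 6 cycling cell markers 5 rose, with sums of 856 to 1077 in dox and 477 to 541 in water. All values on these arrays are above 0, so a listed value does not show that a marker was detected. The mean of Ly6g, a defining neutrophil marker, lay under the lower quartile. The part of the phagocyte and cycling cell markers in the rise of Mt2, Slc39a14 and Slc39a4 was not tested. In whole lung more cells of a type and more RNA per cell cannot be told apart.

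Alveolar and endothelial markers had high sums in both groups, in which the brightest genes weigh most. Those of alveolar type 2 cells summed to 80222 to 83371 units in dox and 74483 to 77904 in water (3 of 8 rose, Sftpa1, Sftpd and Lamp3). Type 1 markers summed to 35290 to 39356 in dox and 41728 to 42140 in water (0 of 8 passed, 4 lower at an unadjusted p under 0.05). Endothelial markers summed to 18030 to 20884 in dox and 21208 to 24027 in water (0 of 8 passed, 6 lower at an unadjusted p under 0.05). Of 5 club cell markers 0 passed (2 lower at an unadjusted p under 0.05), and of 8 fibroblast markers 1 rose (Col14a1) and 2 fell (Tcf21 and Meox2). Of 6 T cell and 5 B cell markers 0 passed, and 0 had an unadjusted p under 0.05. Of 6 markers of liver, heart and fat 0 passed (2 lower at an unadjusted p under 0.05), with sums of 1217 to 3932 in dox and 2882 to 3545 in water.

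Among 13592 other genes above the median level, those whose log2 values followed Mt2 most closely over the 8 arrays were Il1rap, the shared subunit of IL-1 family receptors (Pearson r = 0.986), Cenpt (0.981), Pkmyt1 (0.980), Pld3 (0.979) and Tsr1 (0.979). Of these, Il1rap, Pkmyt1 and Tsr1 rose, with log2 differences of 0.32, 0.45 and 0.37, and Cenpt and Pld3 did not pass. The genes nearest to Slc39a14 were Gbp7, an interferon-inducible GTPase (0.988), Ccn3 (0.987), Sh3pxd2b (0.984), the peptide transporter subunit Tap2 (0.984) and transferrin, Trf (0.982). Gbp7, Ccn3 and Sh3pxd2b rose, with log2 differences of 0.48, 0.81 and 0.78, and Tap2 and Trf did not pass. For Slc30a1 they were Insr (0.944), Marchf6 (0.941), Mettl6 (0.926), Rnf187 (0.921) and Paqr6 (0.920), none of which passed. These r values are a measure of likeness picked as the highest of many, over arrays that share the split into dox and water.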

How the data were processed

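Per the labels' protocols, whole-lung RNA was amplified, labelled with biotin and hybridised to a 1-colour array. The deposited intensity values are linear, 1 for each probe set on each array. The submitters' processing notes name RMA, with no version or genome build. RMA equalises the arrays. Array medians ran from 40.8 to 41.9 units; no detection calls were used, and the number of arrays limits the precision. Gene symbols came from a deposited text table, whose 8 intensity columns match no label and were not used. Symbols were updated with RefSeq names (GRCm38.p6): 17218 probe sets by accession, 13435 by current and 1890 by older symbol, with 4451 kept and 6687 unnamed. The probe set with the highest mean stood for a gene (6702 genes had several).

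Values were taken to log2 and fitted with limma 3.58.1 in R 4.3.3 (lmFit, eBayes, 2-sided), dox against water, with all 8 arrays and a threshold of 0.05. Levels are geometric means. Arrays correlated with r of 0.994 to 0.997 within groups and 0.990 to 0.995 between groups, and no pair held identical values. The labels do not say that each sample is a separate animal, so the spread behind the p-values may be technical. They name no batch. Equal replicate numbers are not said to share an animal, litter or day. Deviations of same-numbered arrays correlated at 0.007, 0.06 and -0.16 for numbers 1 to 3. The highest value of any dox and water pair was 0.314, for dox 5 and water 3. With so few arrays this cannot show whether samples were paired. The members, gene lists and tests were chosen with earlier results of these data known. Genes outside the members were named by rule: up to 3 called genes with the largest change per list, otherwise the one with the smallest p, and the 5 most similar genes. Stat3, Nfe2l2, Hif1a, Osm, Mtf1, Fkbp5, Tsc22d3, Zbtb16, Slc39a2, Slc39a11, Mt4, Nqo1 and Ly6g fall outside it, as do the flanking genes Bbs2 and Nup93. So do Slc30a8, Slc30a10 and Slc39a12. All of these genes were named after their values were seen. Alternatives were a trend and robust prior, array weights, repeated quantile normalization, median subtraction, log2(intensity + 16), the dimmest 25% of genes left out, the mean of probe sets, each probe set alone, the replicate block and leaving out each array. Plots used matplotlib 3.10.9.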

Additional observations from a re-analysis of the deposited data

Results flagged for a closer look

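In the dox group, 1 of the 13 member probe sets had an array far from the others: Slc30a1 read 1571 units in dox 4, whereas the other dox arrays read 1303 to 1341. The gap took up 0.844 of the range of the group. Chance alone flags about 1 in 20 such groups. Without dox 4 the log2 difference of Slc30a1 was -0.14 and still did not pass (adjusted p = 0.344).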

How the results depend on the processing

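The count of members that rose was 3 under all 9 other settings and 2 to 3 without single arrays, and 0 fell under any. Without water 1 it was 2, and without water 3 Mt1 passed in place of Slc39a14. Mt2 and Slc39a4 passed under every setting run. With the replicate block Mt2 gave 1.52 (adjusted p = 0.0103), Slc39a14 0.71 (0.0118) and Slc39a4 0.64 (0.0236). Without single arrays the log2 difference ran from 1.25 to 1.58 for Mt2, from 0.70 to 0.89 for Slc39a14, from 0.59 to 0.73 for Slc39a4, from 0.42 to 0.79 for Mt1 and from -0.024 to 0.072 for Slc39a10, which turned negative without water 3. Mt3 ran from -0.006 to 0.076 and turned negative without water 1. Of the 20 other genes of zinc handling, 1 (Slc39a1) passed with the trend and robust prior, with log2(intensity + 16) and without dox 1, and 0 to 1 passed over single arrays left out.

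Over all genes, 946 rose and 413 fell. With the replicate block 505 rose and 101 fell, and whether equal numbers share a source is not known. The falls numbered 664 with the trend and robust prior, 636 with log2(intensity + 16), and 211 to 410 without single arrays (265, 224 and 260 without dox 1, 2 and 5, and 211 and 212 without water 1 and 2), where 661 to 880 rose. In the 6 lists of regulators and other metal and stress genes, 8 rose and 2 fell. With the replicate block these were 5 and 0, and with the mean of probe sets 0 fell. Without single arrays 4 to 9 rose and 0 to 3 fell. The cause of these shifts was not tested, beyond the fewer samples that leaving out an array gives. Levels near the lower quartile (Mt3, Mt4, Slc30a8, Slc30a10, Slc39a12, Tsc22d3, Il6 in water) limit what the array can show.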
